A study of Mus musculus with 6 samples.

Results

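Oxidative phosphorylation is carried out by 5 protein complexes of the inner mitochondrial membrane, and the transcripts of their subunits were followed here in the cochlear duct of mice at postnatal day 8. Members were chosen by symbol: names starting with Nduf followed by a, b, c, s or v, with Uqcr, with Cox followed by a digit from 4 to 8, with Atp5 or with mt-, together with *Sdha*, *Sdhb*, *Sdhc* and *Sdhd*. The choice used no measured value. It took 98 of the 14865 genes with values, of which 88 are encoded in the nucleus and 10 in the mitochondrial genome, and all 98 were among the 14455 genes tested (0.678% of them). PolyA RNA was sequenced in 6 libraries from mice labelled C57BL/6 (C57BL/6J in the study's methods), 3 of genotype Gfi1+/+ and 3 of genotype Gfi1cre/+, which carry 1 *Gfi1* allele with Cre recombinase placed in the gene, under its own promoter. Each Gfi1+/+ library held 2 cochleae of 1 mouse, and each Gfi1cre/+ library held 6 cochleae pooled from 3 mice. The study compared the genotypes to ask which cochlear transcripts differ in mice with 1 functional copy of *Gfi1*, a transcription factor of hair cells and blood cells.

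Counted reads ran from 13603908 to 19359753 per library, and a value is given as normalized reads, which are reads divided by 1 size factor of the library. A count of 0 allows up to 3 reads, which is 2.61 to 3.70 normalized reads, for counting error only. Values per library are listed in the order of the replicate number throughout. *Gfi1* itself had 147, 160.2 and 152 normalized reads in Gfi1+/+ and 136, 129.6 and 139 in Gfi1cre/+, counted over all exons. Gfi1+/+ replicate 1 stood apart, at -44.0 on the first principal component against -0.304 to 16.2 in the other 5 libraries. Median log2 fold changes by complex, of the nuclear members and of the mitochondrial mRNAs are given with and without this library. *Ddx3y*, on the Y chromosome, had no read in the Gfi1+/+ libraries and 232 to 485 normalized reads in the Gfi1cre/+ libraries, so sex and genotype cannot be told apart. All 12 hair cell and all 12 neuron markers had reads, as did 11 of 12 markers of the stria vascularis. In this whole tissue, fewer cells of a type and less RNA per cell cannot be told apart.

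Complex I oxidizes NADH and complex II oxidizes succinate, and both pass electrons through ubiquinone to complex III, which hands them by way of cytochrome c to complex IV, where oxygen is reduced. Complexes I, III and IV move protons across the membrane, and complex V, the ATP synthase, uses the gradient to make ATP. Complex II is encoded wholly in the nucleus, while each of the others joins nuclear subunits with a few that are translated inside the mitochondrion. In the cochlea, the stria vascularis and the hair cells are rich in mitochondria, and inherited defects of mitochondrial genes can cause hearing loss.

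The promoters of nuclear subunits are known for binding sites of NRF1, of the ETS factor GABPA and of YY1, which tie the nuclear genes to mitochondrial content. Of the 88 nuclear members, 71 matched a RefSeq promoter window of 300 bases in GRCm38.p6 (250 bases before the annotated start and 50 after it). The NRF1 motif GCGCANGCG, searched on both strands, lay in the windows of 21 of the 71 members (29.6%), against 14.6% of the genes tested that had a window and 7.03% of all genes with one. The ETS motif CCGGAAG lay in those of 17 members (23.9%, against 18.5% and 9.93%), and the YY1 motif AAGATGG in those of 10 (14.1%, against 8.15% and 7.28%). No motif contains another, and each was counted on its own. At least 1 of the 3 was found for 40 of the 71 members and all 3 together for none. The same was not counted over the genes tested or over all genes, so neither count sets the members apart. A match describes the letters only, and no binding was measured. The 250 bases before the start are shown for *Cox6a1*, which carries 3 matches, and for *Atp5e*, *Cox5a* and *Ndufb8*, whose levels by genotype are described further on, with each match in capitals.
Cox6a1, chr5:115348959-115349208, minus strand: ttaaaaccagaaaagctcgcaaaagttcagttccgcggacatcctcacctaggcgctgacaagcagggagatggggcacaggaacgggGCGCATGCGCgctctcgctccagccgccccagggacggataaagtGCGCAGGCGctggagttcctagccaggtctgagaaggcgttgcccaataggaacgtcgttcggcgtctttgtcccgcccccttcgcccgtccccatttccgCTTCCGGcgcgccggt
Atp5e, chr2:174464102-174464351, minus strand: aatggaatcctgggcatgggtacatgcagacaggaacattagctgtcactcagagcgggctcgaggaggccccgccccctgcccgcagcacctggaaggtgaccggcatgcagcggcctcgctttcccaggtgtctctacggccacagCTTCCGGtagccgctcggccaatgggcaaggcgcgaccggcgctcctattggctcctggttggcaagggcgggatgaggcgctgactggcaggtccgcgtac
Cox5a, chr9:57520982-57521231, plus strand: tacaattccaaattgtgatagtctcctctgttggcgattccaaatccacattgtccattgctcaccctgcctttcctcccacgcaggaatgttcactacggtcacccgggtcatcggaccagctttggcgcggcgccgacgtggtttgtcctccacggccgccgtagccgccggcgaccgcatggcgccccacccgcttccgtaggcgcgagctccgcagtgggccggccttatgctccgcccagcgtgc
Ndufb8, chr19:44555443-44555692, minus strand: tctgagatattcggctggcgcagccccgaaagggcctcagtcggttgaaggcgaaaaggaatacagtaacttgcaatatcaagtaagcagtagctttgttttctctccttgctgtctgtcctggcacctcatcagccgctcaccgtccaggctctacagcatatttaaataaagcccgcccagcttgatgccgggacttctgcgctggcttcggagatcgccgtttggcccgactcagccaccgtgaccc

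In *Cox6a1* the runs GCGCATGCGC and GCGCAGGCG hold NRF1 matches and start 162 and 117 bases before the start, and CTTCCGG, the ETS motif read on the other strand, starts 16 bases before it. In *Atp5e* the ETS match starts 102 bases before the start. The stretch of *Ndufb8* holds none of the 3 motifs, but the YY1 motif lies in the 50 bases after its start, which are not printed, so it is among the 10 members counted. The whole window of *Cox5a* holds none.

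The authors counted uniquely mapped reads, so near-identical copies of a transcript bear on its level. In the GENCODE M21 annotation, 26 of the 98 members had at least 1 annotated nuclear pseudogene with at least 95% identity over at least 100 bases. Of the mitochondrial mRNAs, *mt-Co1* was covered over 100% of its length by *Gm13340* on chromosome 2, at 97.6% identity, and *mt-Nd3* over 99.1% by *Gm28438* on chromosome 1, at 99.7% identity. The pairs are shown over 60 bases, from base 460 to 519 of *mt-Co1* and from base 1 to 60 of *mt-Nd3*, with the bases that differ in capitals.
mt-Co1: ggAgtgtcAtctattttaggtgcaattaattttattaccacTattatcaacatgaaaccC
Gm13340: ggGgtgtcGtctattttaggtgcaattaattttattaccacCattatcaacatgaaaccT
mt-Nd3: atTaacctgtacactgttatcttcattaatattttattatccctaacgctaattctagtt
Gm28438: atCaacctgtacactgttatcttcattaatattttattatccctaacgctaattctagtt

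Over the whole alignment, *mt-Co1* and its copy differed at 37 of 1545 bases, and *mt-Nd3* and its copy at 1 of 345. *Gm28438* had 26.6 to 42.7 normalized reads per library. *mt-Nd3*, *mt-Nd4l*, *mt-Co2*, *mt-Co3*, *mt-Atp6* and *mt-Atp8* had no values under these symbols. The shares, ratios and order of mitochondrial mRNAs given here therefore cover 7 mRNAs. Of the mRNAs without values, *mt-Atp8* had no near-identical copy, and the others had copies over 99.0% to 100% of their length. *mt-Co1*, which was covered over 100%, had values. The part of the copies in the missing values was not tested.

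The most abundant transcripts per length came from the mitochondrial genome (coordinates in GRCm38). Mean normalized reads per kilobase over the 6 libraries were 61882 for *mt-Co1*, the catalytic subunit of complex IV (MT:5328-6872). They were 57949 for *mt-Cytb*, the cytochrome b of complex III (MT:14145-15288), and 37939 for *mt-Nd1*, a core subunit of the membrane arm of complex I (MT:2751-3707). The complex I subunits *mt-Nd5*, *mt-Nd2*, *mt-Nd4* and *mt-Nd6* followed at 18942, 17135, 15909.7 and 7627 normalized reads per kilobase. *mt-Co1* was above *mt-Cytb* in 6 of 6 libraries, although their ranges over libraries overlapped (58010 to 70186 and 55093 to 65145). *mt-Nd5* was above *mt-Nd2* in 6 libraries and *mt-Nd2* above *mt-Nd4* in 5, with overlapping ranges in both cases. The other neighbours in the order were separated by gaps. *mt-Nd6*, the lowest, is the mRNA encoded on the opposite strand from the rest. Besides *mt-Co1*, nuclear copies covered 63.6% of *mt-Nd4* (100% identity), 52.3% of *mt-Nd5* (95.2%) and 49.1% of *mt-Nd2* (96.7%). No copy was found for *mt-Cytb*, *mt-Nd1* or *mt-Nd6*. The part of the copies in this order was not tested.

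Nuclear members ran from 30.7 to 11969.7 normalized reads per kilobase of their principal transcript, a 390-fold range, with a median of 1509. The highest were *Atp5b*, the catalytic beta subunit of the ATP synthase, at 11969.7, *Cox8a*, a small subunit of complex IV, at 10127, and *Cox6a1*, another small subunit of complex IV, at 8044. In complex I, *Ndufa11* had 3601 and *Ndufb2*, both accessory subunits of the membrane arm, 30.7 normalized reads per kilobase. In complex III, *Uqcrh*, the hinge protein beside cytochrome c1, had 4817 and *Uqcrb*, which lies near the ubiquinone site, 181. Complex II had the narrowest range, from 851 for *Sdhc*, a membrane anchor, to 2256 for *Sdhb*, the iron-sulfur subunit. In complex V, *Atp5g2*, 1 of the 3 genes that encode the c subunit of the rotor ring, had 47.8 against 7059 for *Atp5g3* and 79.3 for *Atp5g1*, which encode the same mature protein.

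These levels depend on the transcript length taken, which was 4371 bases for *Ndufb2*, 4715 for *Atp5g1* and 714 for *Atp5g3*. For *Ndufb2* the level was 23.8 per kilobase of all its exons, which span 5628 bases. Without division by length, *Ndufb2* was not the lowest of complex I, with a mean of 134 normalized reads against 59.2 for *Ndufa12*. Levels also differed between subunits with and without pseudogene copies, though not in the order of the share covered. Among 73 nuclear subunits that are not tissue isoforms or assembly factors, the 53 without a near-identical copy had a median of 2138 normalized reads per kilobase, the 8 with copies over less than 50% of the transcript 599, and the 12 with copies over at least 50% had 988. *Atp5g2* was covered over 88.2% of its transcript, *Uqcrb* over 62.8% and *Ndufb2* over 0%. The part of the copies in these levels was not tested.

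**Figure D1:**
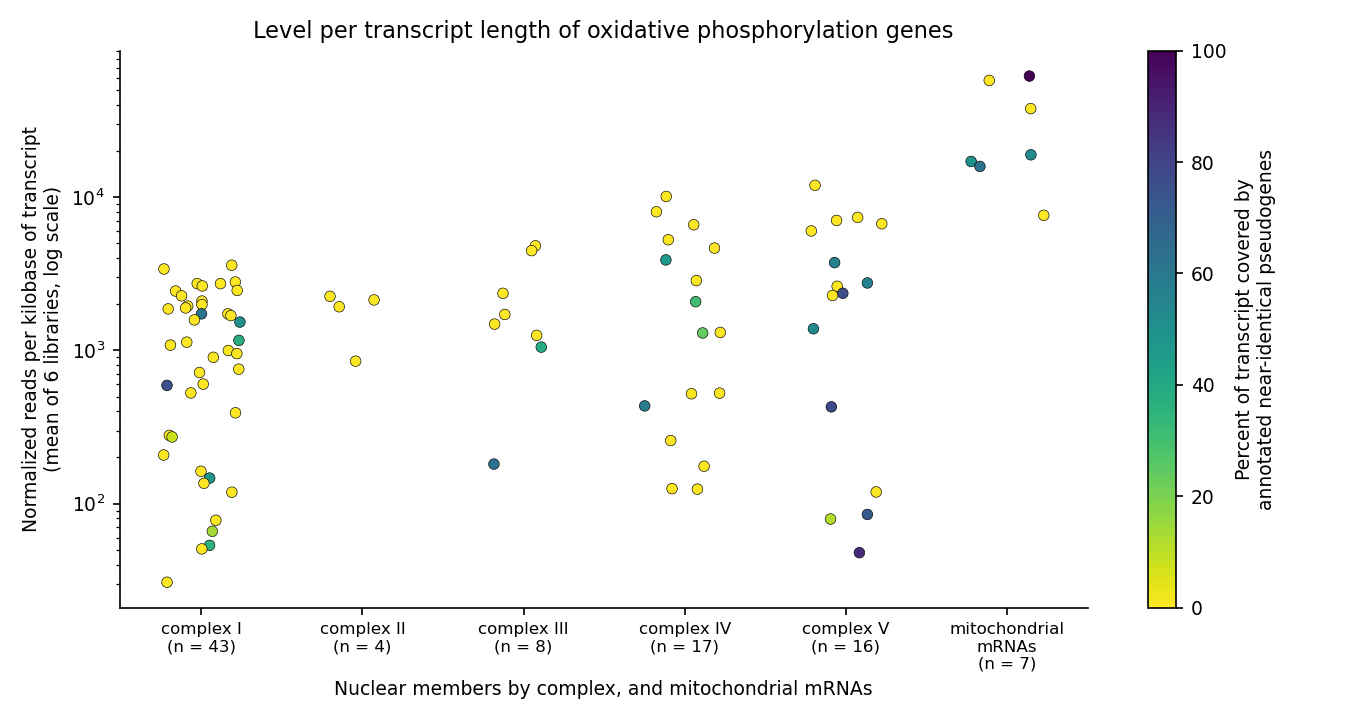
Mean normalized reads per kilobase of the principal transcript over the 6 libraries (vertical axis, log scale) for the 88 nuclear members by complex and for the 7 mitochondrial mRNAs, 1 point per gene, coloured by the percentage of the transcript that near-identical pseudogenes cover. The mitochondrial mRNAs lie between 7627 and 61882, and several of the lowest points in complexes III and V are among the covered transcripts.

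Between the genotypes, no member passed the test across all genes. In limma with Benjamini-Hochberg adjustment, 0 of 98 members had an adjusted p-value under 0.05, beside 4 of all 14455 genes tested (0.0277%). At an unadjusted p-value under 0.05 there were 5 members, 1 higher in Gfi1cre/+ (*Cox5a*) and 4 lower (*Ndufv3*, *Ndufb8*, *Atp5e* and *mt-Rnr1*), where the shares of all genes were 3.04% in either direction, 1.02% higher and 2.02% lower. edgeR and DESeq2 on the recovered reads also called 0 members at an adjusted p-value under 0.05, and each gave 1 higher and 5 lower at an unadjusted p-value under 0.05. The shares of all genes there were 1.02% higher and 2.62% lower in edgeR, and 0.588% higher and 2.01% lower in DESeq2. The libraries of the genotypes did not overlap for 1 member that was higher in Gfi1cre/+ and for 3 that were lower, against 3.45% and 4.07% of all genes (7.52% in either direction). The fitted log2 fold change (Gfi1cre/+ minus Gfi1+/+) was below 0 for 83 of the 98 members, beside 50.1% of all genes. Their median was -0.081, where all genes had -0.00012 with quartiles of -0.063 and 0.055.

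By complex, the median log2 fold change of the nuclear members was -0.091 in complex I (37 of 43 below 0), 0.00023 in complex II (2 of 4), -0.090 in complex III (7 of 8), -0.088 in complex IV (14 of 17) and -0.073 in complex V (14 of 16). Without Gfi1+/+ replicate 1 these medians were -0.030, 0.013, -0.039, -0.054 and -0.039 in complexes I to V. Without Gfi1+/+ replicate 2 they were -0.053, -0.000062, -0.054, -0.042 and -0.055, and without Gfi1+/+ replicate 3 -0.17, -0.032, -0.17, -0.15 and -0.11. Without Gfi1cre/+ replicate 1 they were -0.14, -0.020, -0.14, -0.13 and -0.091, without Gfi1cre/+ replicate 2 -0.040, 0.011, -0.043, -0.035 and -0.049, and without Gfi1cre/+ replicate 3 -0.090, 0.00043, -0.060, -0.097 and -0.066. Complexes I, III, IV and V thus kept their sign with each library left out, and complex II did not. The 7 mitochondrial mRNAs had a median of -0.034, with 6 of 7 below 0. Without Gfi1+/+ replicate 1, 2 of the 7 mRNAs were below 0. Of the 88 nuclear members, 74 were below 0 with all libraries and 68 without Gfi1+/+ replicate 1. Within complex I, the 28 accessory subunits had a median of -0.096, the 7 core subunits that carry the flavin and the iron-sulfur clusters -0.0090, and the 8 assembly factors -0.078. These differences between groups of members were not tested. The median over the 88 nuclear members, -0.086, was -0.037 without Gfi1+/+ replicate 1, -0.049 without Gfi1+/+ replicate 2, -0.155 without Gfi1+/+ replicate 3 and -0.040 without Gfi1cre/+ replicate 2. The number of members lower at an unadjusted p-value under 0.05 was 43 without Gfi1+/+ replicate 3, where it was so for 8.7% of all genes. It was 26 with array weights, beside 6.17% of all genes. It was 0 without Gfi1+/+ replicate 1, beside 1.14% of all genes, and 0 without Gfi1cre/+ replicate 2, beside 0.957%.

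**Figure D2:**
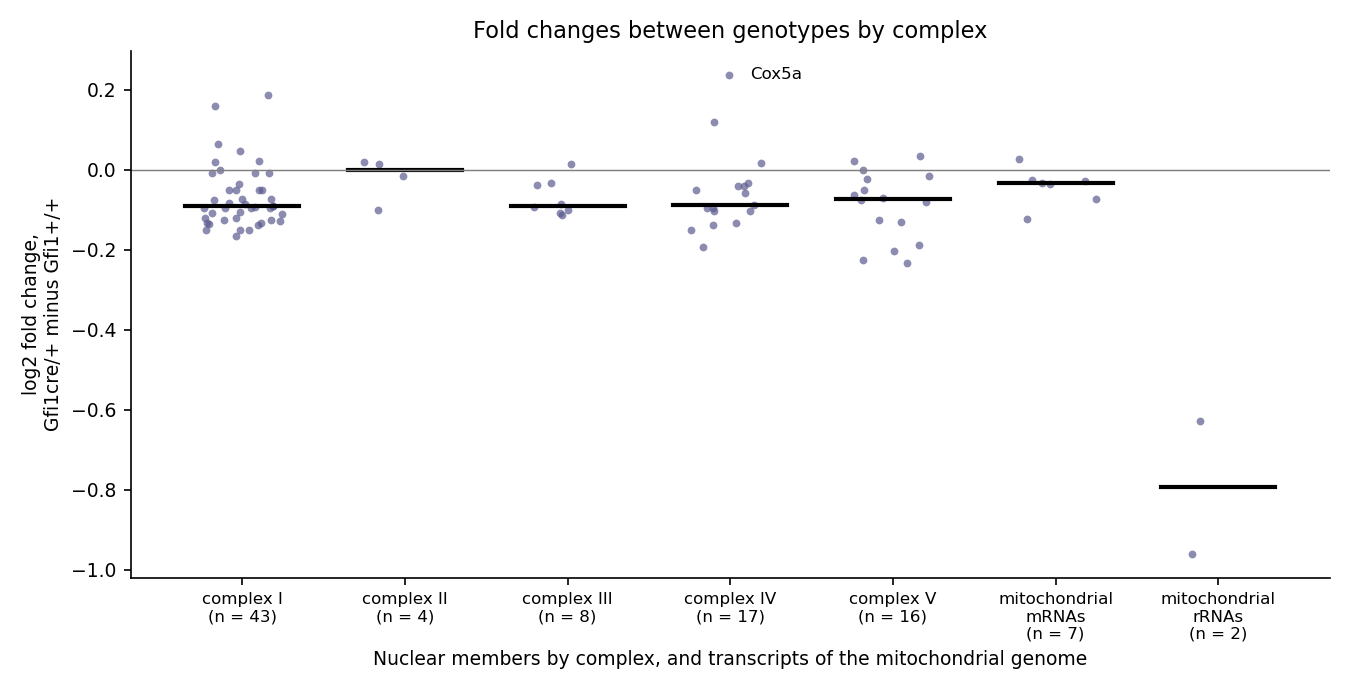
Log2 fold change of each member (Gfi1cre/+ minus Gfi1+/+, limma on log2(normalized reads + 1), vertical axis) by complex and for the mitochondrial transcripts, 1 point per gene, with bars at the medians. Complexes I, III, IV and V have medians between -0.091 and -0.073, complex II lies at 0.00023, and the 2 ribosomal RNAs at -0.63 and -0.96.

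In complex I, *Ndufv3*, an accessory subunit beside the NADH-binding site (chr17:31520115-31531331), had 1856, 1819 and 1756 normalized reads in Gfi1+/+ and 1725, 1489 and 1634 in Gfi1cre/+. The genotypes did not overlap, and the log2 fold change was -0.17 (SE 0.065, unadjusted p = 0.0309, adjusted p = 0.999, limma). *Ndufb8*, an accessory subunit of the membrane arm (chr19:44548572-44555440), had 1128, 1189 and 1064 against 1042, 1018 and 1016, again without overlap, with a log2 fold change of -0.14 (SE 0.059, unadjusted p = 0.0479, adjusted p = 0.999, limma). It stayed at an unadjusted p-value under 0.05 in 8 of 18 settings and *Ndufv3* in 13 of 18. The largest positive log2 fold change in the complex, 0.19 (SE 0.24), was that of *Ndufs5*, an accessory subunit on the intermembrane side. It had 77.8, 89.0 and 109 normalized reads against 149, 75.5 and 99.1, so that the genotypes overlapped and Gfi1cre/+ replicate 1 alone set the sign.

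The other extremes of complex I by level also overlapped between genotypes. *Ndufa11* had 2144, 2188 and 1752 normalized reads in Gfi1+/+ and 1980.0, 1765 and 1946 in Gfi1cre/+. *Ndufb2* had 149, 129 and 118 against 135, 132 and 141. In the catalytic core, *Ndufv1*, which binds NADH, had 2882 ± 222 normalized reads in Gfi1+/+ and 2877 ± 97.2 in Gfi1cre/+ (SD, n = 3 each), a difference within the spread of either genotype.

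The 4 genes of complex II differed little between the genotypes. *Sdhb* had 2974, 2742 and 2305 normalized reads in Gfi1+/+ and 2513, 2389.6 and 2535 in Gfi1cre/+, the most negative log2 fold change of the complex at -0.10 (SE 0.088). *Sdhc* had 2598, 2740.0 and 2699 against 2787, 2654 and 2709, the most positive at 0.020 (SE 0.051). *Sdha*, the flavoprotein that oxidizes succinate, had 5563 ± 156 against 5621 ± 112 (SD, n = 3 each), and in none of the 4 genes were the genotypes separated.

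In complex III, *Uqcr10*, one of its small subunits, had the most negative log2 fold change at -0.11 (SE 0.12), from 2327, 2120.2 and 1642 normalized reads in Gfi1+/+ and 2021, 1687 and 1881 in Gfi1cre/+. Its Gfi1+/+ libraries spanned the whole Gfi1cre/+ range. *Uqcrc1*, a core protein of the matrix side, had 3797, 3881 and 3970.3 against 3868, 3981 and 3917, with a log2 fold change of 0.015 (SE 0.050). The highest member of the complex per length, *Uqcrh*, had 2871, 2835 and 2442 against 2716, 2438 and 2508. The lowest, *Uqcrb*, had 107, 108 and 86.5 against 97.5, 102 and 80.2. Both overlapped between the genotypes.

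Complex IV held the one member that was higher in Gfi1cre/+ at an unadjusted p-value under 0.05. *Cox5a*, an accessory subunit on the matrix side of the complex (chr9:57521274-57532426), had 748, 778 and 801 normalized reads in Gfi1+/+ and 932, 887 and 924 in Gfi1cre/+. Every Gfi1cre/+ library was above every Gfi1+/+ library. The log2 fold change was 0.24 (SE 0.057, unadjusted p = 0.0024, adjusted p = 0.999, limma). It had an unadjusted p-value under 0.05 in 18 of 18 settings, at log2 fold changes from 0.21 to 0.26 and adjusted p-values from 0.0988 to 1 by limma, edgeR or DESeq2, so the adjusted test was passed in none. Of its exon bases, 12.8% lie opposite an antisense gene, *Gm26631*, and the strand setting of the counting was not given in the sources used here. Its partner subunit *Cox5b* had 231 ± 8.32 normalized reads in Gfi1+/+ and 215 ± 14.3 in Gfi1cre/+ (SD, n = 3 each). *Cox7c*, a small membrane subunit, had the most negative log2 fold change of the complex at -0.19 (SE 0.14), from 272, 278 and 203 in Gfi1+/+ and 242, 191 and 222 in Gfi1cre/+, which overlapped. *Cox8a* overlapped as well, at 6015, 5939.7 and 5016 against 5764, 5149 and 5536.

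In complex V, *Atp5e*, the epsilon subunit of the central stalk (chr2:174461072-174464105), had 3136, 3293 and 2739 normalized reads in Gfi1+/+ and 2811, 2300.0 and 2688 in Gfi1cre/+. The lowest Gfi1+/+ library lay below the highest Gfi1cre/+ library, and the log2 fold change was -0.23 (SE 0.092, unadjusted p = 0.0311, adjusted p = 0.999, limma), with an unadjusted p-value under 0.05 in 14 of 18 settings. *Atp5c1*, the gamma subunit of the same stalk, had 4669.7 ± 486 against 4061 ± 509.6 (SD, n = 3 each, log2 fold change -0.20, SE 0.10). The catalytic head differed less: *Atp5b* had 24019, 22550.5 and 22290.5 against 23341, 22308 and 23096, and *Atp5a1*, the alpha subunit, 18118 ± 321 against 18399 ± 53.3. The most positive log2 fold change, 0.035 (SE 0.21), was that of *Atp5l*, subunit g of the membrane part, at 54.3, 45.0 and 38 against 52.2, 46.2 and 41.5. *Atp5g2* had 34.6, 39.8 and 30.6 against 25.2, 40.8 and 38.7. At these low counts the genotypes were not separated for either gene.

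Of the transcripts of the mitochondrial genome, all 7 mRNAs were highest in Gfi1+/+ replicate 1. *mt-Co1* had 108437, 91719 and 89625 normalized reads in Gfi1+/+ and 96422, 93103 and 94343 in Gfi1cre/+. *mt-Cytb* had 74526, 64125 and 63027 against 67017, 63395 and 65670. *mt-Nd1* had 40865, 35666 and 35234 against 36187, 33903 and 35990. In each of the 3 genes, the Gfi1cre/+ libraries lay within the range of the Gfi1+/+ libraries or reached slightly below it. *mt-Nd5* had 37489, 34079 and 33148 against 33395, 35059.9 and 34126, and *mt-Nd4* 23606, 20755 and 20858 against 22746, 22348 and 21228. *mt-Nd2* had 19388, 16752 and 17872 against 17663, 16796 and 18244. *mt-Nd6* had 4252, 3959.8 and 4159 against 3900.0, 3503 and 3977, the most negative log2 fold change of the 7 at -0.12 (SE 0.064). The other 6 ranged from -0.073 to 0.026, and without Gfi1+/+ replicate 1 the median of the 7 was 0.025 in place of -0.034.

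The mitochondrial mRNAs took 1.84%, 1.6% and 1.55% of the reads in Gfi1+/+ and 1.65%, 1.6% and 1.62% in Gfi1cre/+, with means of 1.66% ± 0.153 and 1.62% ± 0.0226 (SD, n = 3 each). The nuclear members took 1.14%, 1.13% and 0.994% against 1.08%, 1.01% and 1.04%, with means of 1.09% ± 0.0801 and 1.04% ± 0.0371. Both shares overlapped between the genotypes. The 7 mRNAs thus carried more reads than the 88 nuclear genes in each of the 6 libraries, with ratios between 1.42 and 1.61.

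The ribosomal RNAs varied far more. *mt-Rnr1*, the small ribosomal RNA of the mitochondrion (MT:70-1024), had 8798, 2072 and 3859.6 normalized reads in Gfi1+/+ and 2304, 1858 and 2236 in Gfi1cre/+. *mt-Rnr2*, the large one (MT:1094-2675), had 9040.3, 3207 and 5295 against 3517, 3350.1 and 3529. Gfi1+/+ replicates 1 and 3 were above all Gfi1cre/+ libraries for both, while Gfi1+/+ replicate 2 lay inside or below the Gfi1cre/+ range. The log2 fold change of *mt-Rnr1* was -0.96 (SE 0.41, unadjusted p = 0.0442, adjusted p = 0.999, limma), and it was -0.41 (unadjusted p = 0.0914) without Gfi1+/+ replicate 1 and -1.46 without Gfi1+/+ replicate 2. That of *mt-Rnr2* was -0.63 (SE 0.29, unadjusted p = 0.0599, limma). Leaving out Gfi1+/+ replicate 1 gave -0.25 for it, and leaving out Gfi1+/+ replicate 2 gave -0.998. Relative to the mitochondrial mRNAs of the same library, the summed ribosomal RNA was 5.78%, 1.98% and 3.47% in Gfi1+/+ and 2.10%, 1.94% and 2.11% in Gfi1cre/+. *mt-Tp*, the proline transfer RNA, had 239, 171 and 191 normalized reads against 189.7, 186 and 205. RNA was selected for polyA tails, and the part of that selection in the ribosomal RNA levels was not tested. The sum of the 12 neuron markers was 11219, 4778 and 3252 normalized reads in Gfi1+/+ and 2797, 3155 and 3658 in Gfi1cre/+, so Gfi1+/+ replicate 1 was highest there too, and Gfi1+/+ replicate 3 was not second. At an unadjusted p-value under 0.05 in limma, 2.02% of all genes and 5 of the 11 neuron markers tested were lower in Gfi1cre/+. The count of these markers without Gfi1+/+ replicate 1 is not given here. None of these markers had an adjusted p-value under 0.05. Their part in the mitochondrial RNA levels was not tested.

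**Figure D3:**
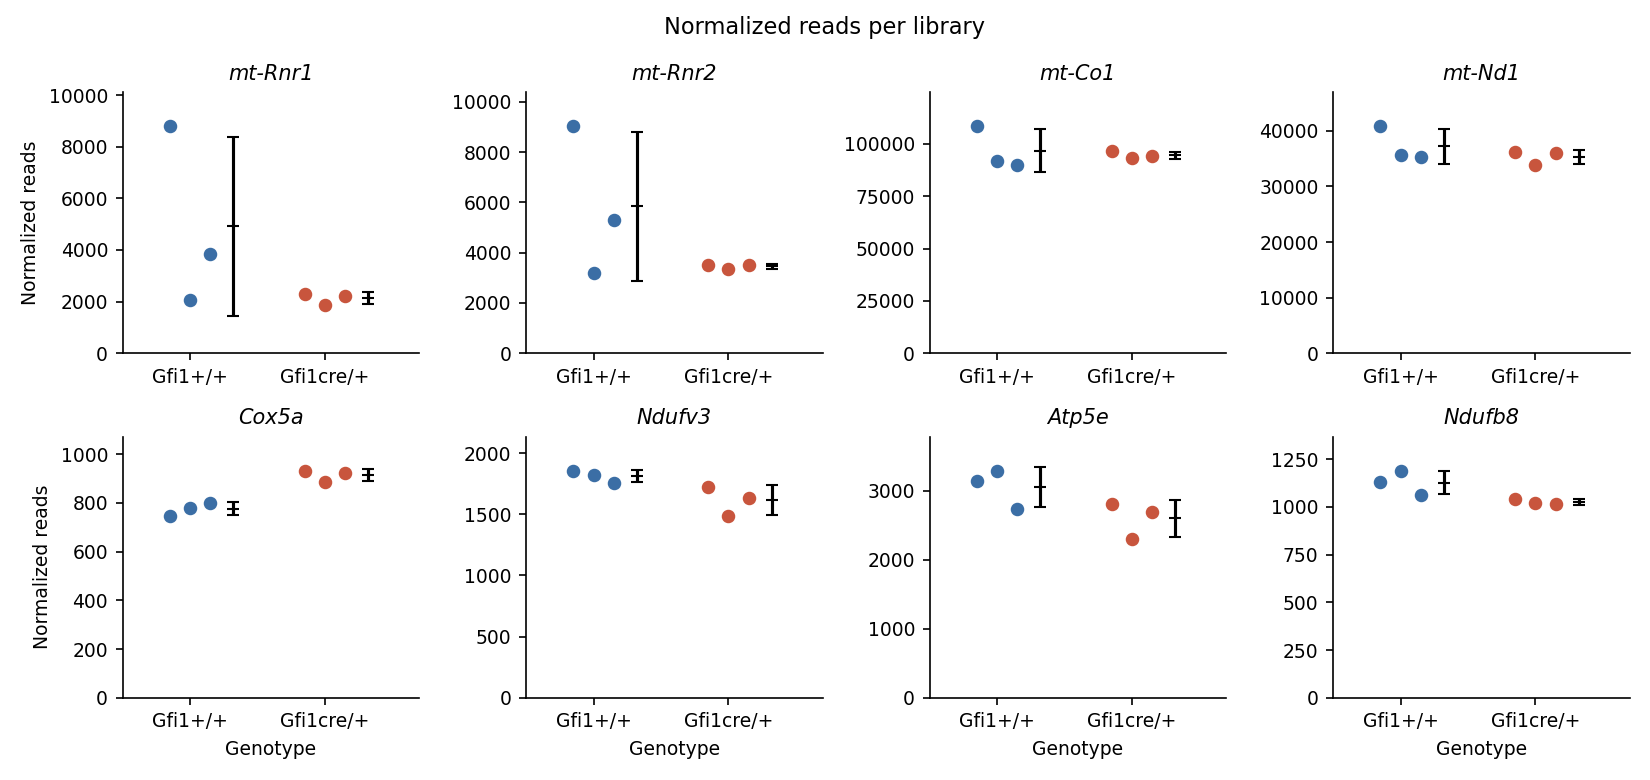
Normalized reads per library (vertical axes from 0) of 8 members in the 3 Gfi1+/+ (blue) and 3 Gfi1cre/+ (red) libraries, in replicate order, with the mean and SD of each genotype as black bars. The ribosomal RNAs are high in Gfi1+/+ replicates 1 and 3, the Cox5a points of the genotypes are separated, and those of mt-Co1 and mt-Nd1 overlap.

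The tissue isoforms of complex IV replace common subunits in lung, heart, skeletal muscle, testis or other settings. The 5 with values had 124 to 526 normalized reads per kilobase, beside a median of 3900 for the 11 common nuclear subunits. The common subunits *Cox7c*, at 434, and *Cox5b*, at 258, lay within the range of the isoforms. *Cox7a1*, the heart and muscle form, had 218, 214 and 212 normalized reads in Gfi1+/+ and 198, 181 and 208 in Gfi1cre/+, which did not overlap (log2 fold change -0.14, SE 0.088, unadjusted p = 0.152, limma). *Cox8b*, also of heart and muscle, had 190.1, 225 and 165 against 207, 165 and 185. *Cox4i2*, a form known from lung, had 83.9, 109.9 and 79.1 against 85.3, 97.7 and 90.6. Per kilobase, *Cox4i2* had 124 normalized reads against 6617 for its common counterpart *Cox4i1*, and *Cox8b* had 526 against 10127 for *Cox8a*. *Cox6b2*, the testis form, had 106, 109 and 97.0 in Gfi1+/+ and 113, 78.1 and 112 in Gfi1cre/+. *Ndufa4l2*, a hypoxia-responsive relative of *Ndufa4*, had 102, 115 and 118 against 108, 134 and 124. The genotypes overlapped for all but *Cox7a1*. Skeletal muscle markers with values were 8 of 20, and their sum was 779.5 to 789 normalized reads in Gfi1+/+ and 743 to 791 in Gfi1cre/+. All 12 markers of pericytes and vascular smooth muscle had values, with sums of 13009 to 14750 and 13486 to 14541. The part of either cell type in the isoform levels was not tested.

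Of the nuclear members, *Ndufa1*, *Ndufb11* and *Cox7b* are on the X chromosome. *Ndufa1* had 1202 ± 105 normalized reads in Gfi1+/+ and 1086 ± 128 in Gfi1cre/+, *Ndufb11* 1447 ± 125 and 1334 ± 204, and *Cox7b* 1365 ± 185 and 1238 ± 51.2 (SD, n = 3 each). Their log2 fold changes of -0.15, -0.13 and -0.13 lay within the range of the autosomal members.

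The nuclear members moved together from library to library, and the genotypes overlapped. The deviation of a gene in a library was taken as its log2 value minus the gene's mean over the 6 libraries. The median deviation of the 88 nuclear members was 0.121, 0.0961 and -0.0974 in Gfi1+/+ and 0.0351, -0.117 and -0.0293 in Gfi1cre/+, while that of all genes was between 0.00062 and 0.0017. Gfi1+/+ replicates 1 and 2 held the highest value of 46 and 26 nuclear members, and Gfi1cre/+ replicate 2 and Gfi1+/+ replicate 3 the lowest of 41 and 31. The order of libraries thus put a Gfi1+/+ library at the top and another next to the bottom. The mitochondrial mRNAs showed another order, with median deviations of 0.126, -0.0456 and -0.0585 in Gfi1+/+ and -0.0023, -0.0621 and -0.0112 in Gfi1cre/+. In Gfi1+/+ replicate 2 the nuclear members were above and the mitochondrial mRNAs below their means, by their medians. The median SD of a member on the log2 scale was 0.130 among the Gfi1+/+ libraries, of 1 mouse each, and 0.0880 among the pooled Gfi1cre/+ libraries, beside 0.119 and 0.0737 for all genes.

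**Figure D4:**
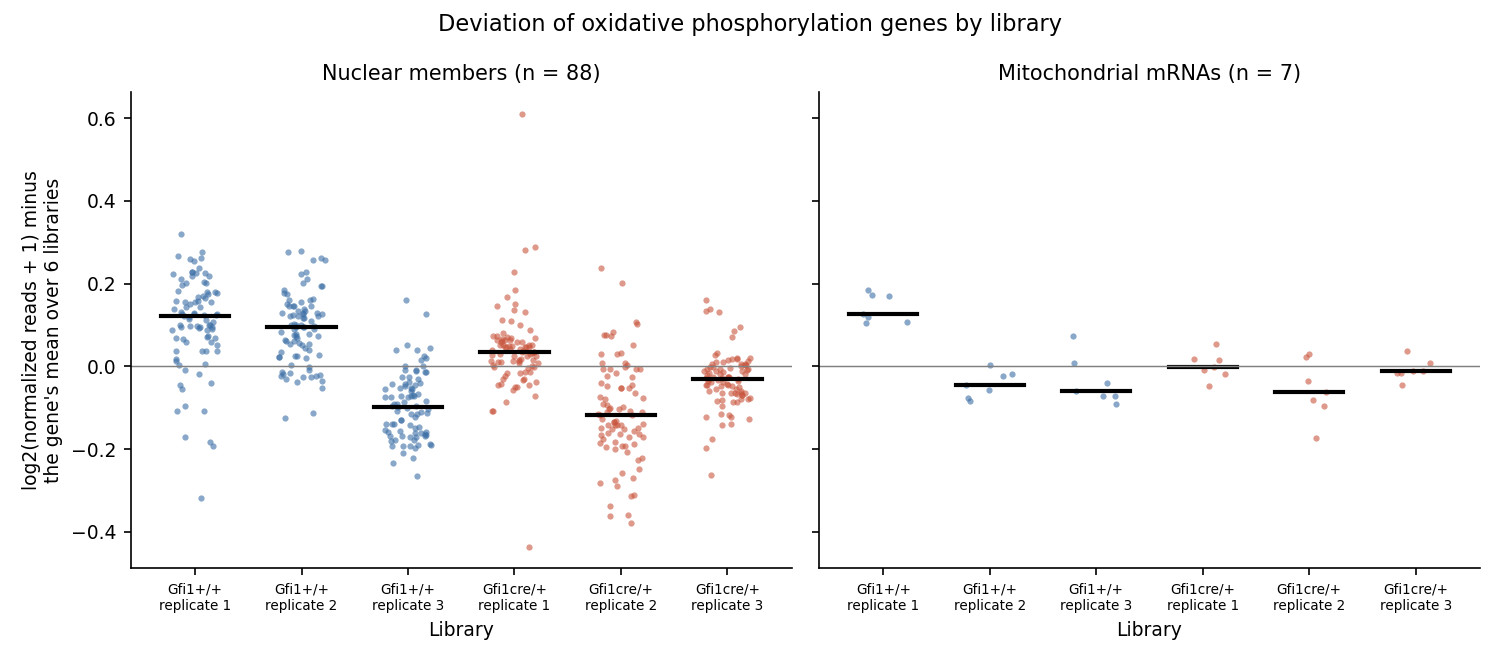
Deviation of each gene from its mean over the 6 libraries, on the log2(normalized reads + 1) scale (vertical axis), by library, for the 88 nuclear members (left) and the 7 mitochondrial mRNAs (right), with bars at the medians. Nuclear medians run from 0.121 in Gfi1+/+ replicate 1 to -0.117 in Gfi1cre/+ replicate 2, with Gfi1+/+ replicate 3 near the bottom, whereas the mitochondrial mRNAs are high in Gfi1+/+ replicate 1 alone.

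Many subunits of these complexes are small proteins with short transcripts, and other short genes moved in the same libraries. Of the other protein-coding genes with under 1000 exon bases, 198 had values, and their median deviations were 0.0953, 0.102 and -0.0834 in Gfi1+/+ and 0.0287, -0.106 and -0.0288 in Gfi1cre/+. Their median log2 fold change was -0.077, with 70.7% below 0, and that of the 20 nuclear members of this length was -0.099, with 90% below 0. From 1000 to 1500 exon bases the medians were -0.034 for 495 other genes and -0.086 for 19 nuclear members, and from 3000 to 5000 they were 0.0061 for 3833 other genes and -0.066 for 18 nuclear members. The 4 nuclear members over 5000 exon bases, among them *Ndufb2* and *Ndufab1*, had a median of 0.041, on few genes. Exon bases count all annotated exons of a gene, so genes with a short principal transcript also fell in long classes. *Ndufb7* had 4522 exon bases and a principal transcript of 623, and *Atp5l* had 6443 and 544. The part of transcript length in the genotype difference was not tested.

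**Figure D5:**
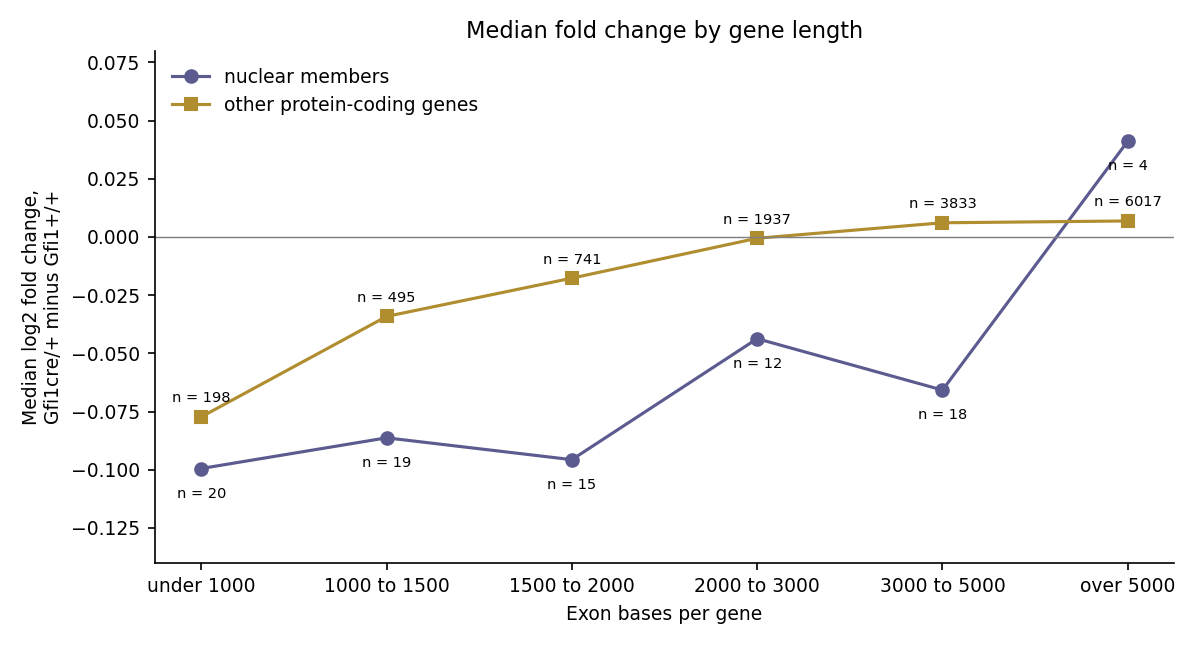
Median log2 fold change (Gfi1cre/+ minus Gfi1+/+, vertical axis) by class of exon bases per gene for nuclear members (circles) and other protein-coding genes (squares), with the number of genes beside each point. Other genes go from -0.077 in the shortest class to 0.0069 in the longest, and nuclear members lie below them in 5 of 6 classes.

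The other genes of the pathway gave few differences. Of 8 further subunits and carriers, 0 had an unadjusted p-value under 0.05 in either direction. The smallest p was that of *2010107E04Rik*, which encodes a small ATP synthase subunit, with 1324, 1208 and 1122 normalized reads in Gfi1+/+ and 1131, 1037 and 1099 in Gfi1cre/+ (log2 fold change -0.16, SE 0.072), values that overlapped. Cytochrome c1, *Cyc1*, had 2896, 3077 and 3072 against 3129, 2928 and 3084. Of 37 further assembly factors, 1 was lower and none higher at an unadjusted p-value under 0.05. This was *Coa7*, an assembly factor of complex IV, with 264, 270.1 and 253 against 215, 239.7 and 216, without overlap (log2 fold change -0.23, SE 0.083, unadjusted p = 0.0207, adjusted p = 0.999, limma). The matching shares of all genes were 3.04% in either direction, 1.02% higher and 2.02% lower.

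None of the 17 genes of mitochondrial transcription and replication, the 12 transcription regulators of mitochondrial biogenesis or the 14 genes of the tricarboxylic acid cycle had an unadjusted p-value under 0.05 in limma. *Polrmt*, the mitochondrial RNA polymerase, had 679, 654 and 743 normalized reads in Gfi1+/+ and 723, 722 and 744 in Gfi1cre/+. *Esrrg*, a nuclear receptor that acts on mitochondrial genes, had 243, 168 and 145 against 124, 130.5 and 156, high in Gfi1+/+ replicate 1 like the neuron markers. *Dld*, a subunit of the ketoacid dehydrogenases, had 1823, 1757 and 1554 against 1690.2, 1558 and 1575. The medians of the 3 lists were -0.050, 0.016 and -0.012 on the log2 scale. Among 9 genes of uncoupling and nucleotide exchange, *Vdac3*, a channel of the outer membrane, was lower in Gfi1cre/+ (473, 503 and 463 against 435, 383 and 444, log2 fold change -0.19, SE 0.078, unadjusted p = 0.0377, adjusted p = 0.999, limma), and none was higher. No gene of these 6 lists passed the adjusted test. At the unadjusted threshold the shares of all genes were 3.04% in either direction, 1.02% higher and 2.02% lower.

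Markers of other cells moved beside these values. Of 11 erythroid markers, 9 were higher in Gfi1cre/+ at an unadjusted p-value under 0.05 in limma. The shares of all genes at this threshold were 1.02% higher and 2.02% lower. Erythroid sums were 30855 to 44951 normalized reads in Gfi1+/+ and 39399 to 67411 in Gfi1cre/+. Of 12 hair cell markers, 1 was lower at it (*Pvalb*), with sums of 6740 to 7637 and 6186 to 6639. The log2 fold change was below 0 for 11 of the 12, with a median of -0.14, beside 50.1% of all genes. Among the 11 is *Gfi1* itself, the gene altered in these mice, at -0.18. Of 11 stria vascularis markers, 1 was higher (*Kcne1*), with sums of 123117 to 139811 and 137589 to 139621. For 9 of these 11 the log2 fold change was above 0, with a median of 0.092. Values existed for 11 of 12 erythroid, 12 of 12 hair cell and 11 of 12 stria vascularis markers. The gene with the fewest reads among those with values had 8 over the 6 libraries, so no marker could stand at 0 in all. The part of these markers in the levels of the subunits was not tested.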

How the data were processed

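RNA of P8 cochlear ducts was sequenced in 6 libraries. The authors prepared them with a TruSeq kit, used TopHat for alignment to mm10 and HTSeq for counting reads that mapped to 1 place, and left out genes under 40 reads, although 12 genes with values had fewer over the 6 libraries. Versions, annotation and strand setting are not given in the sources used here. The deposited signal values, described by the authors as quantile-normalized, were whole reads divided by 1 factor per library (100% of values whole, within 0.006 normalized reads), and their sum differed between columns. Rows without a gene symbol numbered 78 and held 0.085% of the reads.

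Genes that reached 40 normalized reads in any library entered limma 3.58.1 (R 4.3.3) on log2(value + 1), genotype as the only term, eBayes with a trend, two-sided, Benjamini-Hochberg adjusted over 14455 genes. This scale understates the change of low genes. edgeR 4.0.16 (quasi-likelihood) and DESeq2 1.42.0 were run on the recovered reads. Nothing in the labels says whether mice of a genotype came from separate litters. Positions, lengths and pseudogenes came from GENCODE M21 (GRCm38), promoters from RefSeq (GRCm38.p6). A near-identical copy was an annotated nuclear pseudogene transcript with a megablast hit of at least 95% identity over at least 100 bases.

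Named with all libraries were the mitochondrial transcripts, the highest and lowest member per kilobase and the largest log2 fold changes of each complex, the tissue isoforms, members under 0.05 by unadjusted p-value, and at most 3 genes a list. Genes named besides these were chosen after their values were seen. The members and lists were chosen with earlier results of these data known. Steps were tested on simulated data. Alternatives were other pseudocounts (0.1 and 10) and minima, no trend, array weights, library totals, quantile normalization, a replicate block and leaving out each library.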

Additional observations from a re-analysis of the deposited data

How the results depend on the processing

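Under every alternative, limma, edgeR or DESeq2, 0 members had an adjusted p-value under 0.05. The number at an unadjusted p-value under 0.05, 5, was 1 without a trend (where 3.57% of all genes were under it) and 27 with array weights (1 higher and 26 lower, where 6.17% of all genes were lower). Leaving out 1 library gave from 1 to 44, where from 1.47% to 16.2% of all genes were under this threshold. The 44, of which 43 were lower, came without Gfi1+/+ replicate 3, where 8.7% of all genes were lower. Without Gfi1+/+ replicate 1 and without Gfi1cre/+ replicate 2 no member was lower, where 1.14% and 0.957% of all genes were. The cause of these shifts was not tested. With the replicate number as a block the count was 6 (1 higher and 5 lower), where 3.20% of all genes were under it and 2.08% lower. Deviations of libraries with the same number correlated at -0.0944, 0.107 and -0.0326, so the numbers were not taken to pair the samples, and not every library correlated best with its own number.

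Of 559 log2 fold changes of the 33 members named by rule under other settings, 32 had another sign, and 16 members kept theirs throughout. With array weights the sign turned for *Atp5b* (0.0060), *Atp5l* (-0.013), *Cox4i2* (-0.13), *mt-Nd2* (0.018) and *mt-Tp* (0.066), and with quantile normalization for *Atp5g2* (0.050) and *mt-Nd4* (-0.022). Leaving out 1 library gave from -0.023 to 0.031 for *Atp5b*, -0.11 to 0.19 for *Atp5g2*, -0.089 to 0.16 for *Atp5l*, -0.077 to 0.16 for *Cox4i2*, -0.15 to 0.12 for *Cox6b2*, -0.13 to 0.0050 for *Cox8a*, -0.16 to 0.064 for *Cox8b*, -0.029 to 0.14 for *Ndufb2*, -0.072 to 0.41 for *Ndufs5*, -0.0019 to 0.037 for *Sdhc* and -0.0015 to 0.031 for *Uqcrc1*. For *mt-Co1* it gave from -0.076 to 0.061, for *mt-Cytb* -0.081 to 0.040, for *mt-Nd2* -0.084 to 0.021, for *mt-Nd4* -0.0059 to 0.087, for *mt-Nd5* -0.064 to 0.025 and for *mt-Tp* -0.14 to 0.099. None of these members had an unadjusted p-value under 0.05 in the first place. Where a minimum left a member out, as a mean of at least 40 did for *Atp5g2*, it has no value.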
